A study of Homo sapiens with 33 samples.

Results

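The potassium channel genes of the human genome carry symbols that begin with KCN, and every gene of this form on chromosomes 1 to 22 was examined here in H9 human embryonic stem cells (ESCs) with and without EZH2. The symbol rule, which uses no measured value, selected 93 genes of the 35805 entries in the RNA-seq table, and all 93 also had promoter windows in the ChIP-seq table, which covers 35683 gene names. The genes comprised 39 voltage-gated alpha subunits, 8 calcium- or sodium-activated alpha subunits, 16 inward rectifiers, 15 tandem-pore (K2P) channels and 15 auxiliary subunits. Each gene was represented by 1 promoter window, the one with the highest H3K27me3 in EZH2+/+ ESCs, which favours high values in that genotype. The study disrupted EZH2 by CRISPR/Cas9 in H9, an established ESC line, and profiled EZH2+/+ (WT), EZH2-/+ (Het), EZH2-/- (Null) and EZH2-/- +EZH2 (Null + EZH2) ESCs. For the EZH2-/- genotype, an EZH2-/+ line received a doxycycline-inducible EZH2 transgene on a piggyBac vector, and its remaining allele was then targeted while doxycycline was present. EZH2-/- +EZH2 ESCs express this transgene in response to doxycycline. EZH2-/- ESCs were kept without its expression, and the labels do not say whether it had been removed from them. The targeted lines are clones, and the EZH2-/- and EZH2-/- +EZH2 lines descend from an EZH2-/+ line. ESCs grew on mouse feeder cells and were flow sorted by SSEA4, a pluripotent cell surface marker, and a lineage effect of the clones cannot be told apart from an effect of the genotype.

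Potassium channels let potassium ions leave or enter the cell and so set the resting membrane potential and shape action potentials, hormone secretion and muscle tone. Alpha subunits form the pore, auxiliary subunits change where and when it opens, and most of the genes are characteristic of neurons, heart, muscle, kidney and secretory cells rather than of stem cells. EZH2 is the catalytic subunit of Polycomb Repressive Complex 2 (PRC2), which places methyl groups on lysine 27 of histone H3. H3K27me3 is found at promoters of many developmental and cell type-specific genes in ESCs, often together with H3K4me3, a mark of promoters (bivalent chromatin). H3K27ac, which occupies the same residue as H3K27me3, marks active promoters and enhancers, and H3K4me1 marks enhancers and the flanks of promoters.

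RNA-seq consisted of 12 libraries, 3 per genotype, with 16587860 to 36589089 reads on genes, so that 3 reads equalled 0.0528 to 0.120 RPM (reads per 1000000). The targeted gene followed the labels, with EZH2 RNA at 68.6, 63.3 and 59.5 RPM in the EZH2+/+ libraries, 55.4, 52.3 and 45.7 in EZH2-/+, 11.5, 8.65 and 9.68 in EZH2-/-, and 271, 385 and 256 in EZH2-/- +EZH2. EZH2-/+ library 3 stood apart, with a median correlation of 0.960 to its own genotype against 0.974 to 0.985 for the other libraries. All 10 pluripotent cell markers were expressed, and their summed level was 2466 to 3131 RPM in EZH2+/+ and 3944 to 4524 RPM in EZH2-/- ESCs, where 7 were higher and SOX2 was lower. Markers of other cell types moved as well. Of all genes tested, 12.6% were higher and 18.8% lower in EZH2-/- than in EZH2+/+ ESCs, and in EZH2-/- +EZH2 ESCs 6.9% were lower. Against EZH2+/+ ESCs, 4 of 8 endoderm markers and 6 of 9 mesoderm and mesenchyme markers were higher in EZH2-/- ESCs, with summed levels of 28.1 to 66.7 against 189 to 520 RPM and of 51.1 to 86.3 against 190 to 363 RPM. Of 9 neuronal markers tested, 2 were lower in EZH2-/- and 4 in EZH2-/- +EZH2 ESCs, with sums of 175 to 218 and 146 to 169 RPM against 252 to 276 RPM. Of 5 tested markers of feeder cells or fibroblasts, 2 were higher and 1 lower in EZH2-/- ESCs, and DCN and FAP fell below the filter. The part of these cells in the channel results was not tested. In RNA from a population of cells, fewer cells of a type and less RNA per cell cannot be told apart.

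In EZH2+/+ ESCs, H3K27me3 covered most potassium channel promoters. By the threshold in the methods of the study (H3K27me3 above 0.1 and input below 0.1 on the log2 scale of RPM per kilobase, equal to 5.36 RPM in a 5 kb window), 66 of 93 genes had an H3K27me3 promoter, or 71.0% against 17.5% of all gene names. The study set its threshold on non-duplicated reads with another normalisation and obtained a much smaller set of promoters than the 6235 gene names that passed here. The lowest gene above the threshold was KCNAB2, at 5.52 RPM, and the highest below it was KCNMB3, at 5.27 RPM. H3K27me3 promoters were found in 33 of 39 voltage-gated, 5 of 8 calcium- or sodium-activated, 9 of 16 inward rectifier, 12 of 15 K2P and 7 of 15 auxiliary subunit genes. H3K4me3 passed the same threshold at 50 of the 66, so 50 of 93 genes carried both marks against 14.4% of all gene names. A further 16 genes had H3K27me3 alone, 6 had H3K4me3 alone and 21 had neither. The highest H3K27me3 was at KCNH3 (37.7 RPM), which encodes a voltage-gated channel of the brain, at the K2P genes KCNK9 (33.4 RPM), KCNK4 (33.2 RPM) and KCNK17 (28.1 RPM), at KCNMA1 (31.4 RPM), the pore of the large-conductance BK channel, and at KCNA2 (27.7 RPM), a voltage-gated channel of axons. EZH2 itself, measured in EZH2+/+ ESCs in 1 library of its own, had a median of 1.02 RPM over the 66 promoters and 0.182 RPM over the other 27. Across the 93 promoters H3K27me3 and EZH2 varied together (Pearson's r 0.773, Spearman's rho 0.813), a description over promoters that share the same libraries and differ in base composition.

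The promoters differed in their content of CG dinucleotides, the sites of DNA methylation and a usual feature of PRC2-bound regions. The 6 sequences below, from RefSeq on GRCh38.p14, are the 250 bases before a start site inside the chosen window, on the strand of the gene, with each CG in capitals. They are shown because the results on RNA turn on these genes: KCNF1 and KCNK1 were higher and KCNN3, KCNC1 and KCNIP1 lower in EZH2-/- ESCs and have an H3K27me3 promoter, and KCNJ16 was higher and has none.
KCNF1: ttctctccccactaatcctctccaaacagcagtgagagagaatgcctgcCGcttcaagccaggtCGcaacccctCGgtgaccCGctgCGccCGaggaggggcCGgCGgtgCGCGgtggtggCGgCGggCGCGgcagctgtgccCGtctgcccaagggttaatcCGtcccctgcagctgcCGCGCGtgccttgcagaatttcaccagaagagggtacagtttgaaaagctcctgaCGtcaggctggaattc
KCNK1: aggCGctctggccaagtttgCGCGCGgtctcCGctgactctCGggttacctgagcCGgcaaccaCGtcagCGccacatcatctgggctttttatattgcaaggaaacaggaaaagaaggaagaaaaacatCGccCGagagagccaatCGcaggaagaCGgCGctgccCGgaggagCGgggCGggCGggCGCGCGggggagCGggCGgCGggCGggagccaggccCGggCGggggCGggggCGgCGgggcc
KCNN3: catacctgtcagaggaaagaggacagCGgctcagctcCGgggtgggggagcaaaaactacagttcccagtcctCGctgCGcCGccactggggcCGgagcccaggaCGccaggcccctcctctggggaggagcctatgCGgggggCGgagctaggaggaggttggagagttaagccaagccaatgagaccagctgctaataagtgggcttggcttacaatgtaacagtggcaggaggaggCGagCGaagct
KCNC1: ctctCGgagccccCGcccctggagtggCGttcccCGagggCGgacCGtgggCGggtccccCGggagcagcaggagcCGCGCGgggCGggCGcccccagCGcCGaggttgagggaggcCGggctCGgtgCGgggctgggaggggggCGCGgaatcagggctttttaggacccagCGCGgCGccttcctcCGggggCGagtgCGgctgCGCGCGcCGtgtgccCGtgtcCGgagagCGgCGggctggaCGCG
KCNIP1: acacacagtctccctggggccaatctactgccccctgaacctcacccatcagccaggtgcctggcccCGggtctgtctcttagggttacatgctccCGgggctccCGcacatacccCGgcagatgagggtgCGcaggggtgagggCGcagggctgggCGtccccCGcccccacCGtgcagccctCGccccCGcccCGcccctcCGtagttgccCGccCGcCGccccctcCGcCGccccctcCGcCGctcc
KCNJ16: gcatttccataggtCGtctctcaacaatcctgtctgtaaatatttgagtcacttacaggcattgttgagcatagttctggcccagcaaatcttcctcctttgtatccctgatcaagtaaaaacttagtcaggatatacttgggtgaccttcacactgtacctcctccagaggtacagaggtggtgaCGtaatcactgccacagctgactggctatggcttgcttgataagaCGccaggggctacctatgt
KCNF1 (chr2:10911684-10911933, plus strand) held 20 CG and KCNK1 (chr1:233613856-233614105, plus strand) 30. KCNN3 (chr1:154870282-154870531, minus strand) held 11, KCNC1 (chr11:17734531-17734780, plus strand) 36 and KCNIP1 (chr5:170503770-170504019, plus strand) 20. KCNJ16 (chr17:70074975-70075224, plus strand) held 3. Of 35116 RefSeq promoters of this length, the share with at least as many CG was 32.4%, 12.4%, 50.3%, 4.85%, 32.4% and 77.1% for the 6 genes in that order, and the median of all promoters was 11. A RefSeq promoter lay inside the chosen window for 61 of the 93 genes. The 41 with H3K27me3 had a median of 25 CG (range 1 to 46), 34 of them above the median of all promoters. The 20 without H3K27me3 had a median of 6 CG (range 1 to 31), with 7 above it. KCNV1, KCNE4, KCNK12, KCNS1 and KCNJ12 had no entry in the sequence table.

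H3K27me3 was at or below input level at most potassium channel promoters of EZH2-/- ESCs, and it returned in EZH2-/- +EZH2 ESCs. At the 66 H3K27me3 promoters the medians of EZH2+/+, EZH2-/+, EZH2-/- and EZH2-/- +EZH2 ESCs were 15.8, 15.8, 0.906 and 14.7 RPM, and those of input 1.32 to 1.42 RPM. In EZH2-/- ESCs, 14 of 66 promoters lay above input and 0 passed the 5.36 RPM threshold, whereas 63 passed it in EZH2-/+ and 63 in EZH2-/- +EZH2 ESCs. The median log2 difference of EZH2-/- from EZH2+/+ ESCs was -4.02, and all 66 promoters fell by at least 1, as against a median of -3.67 over the 6235 promoters of all genes with the mark. Over all 93 genes, 84 fell by at least 1, against 48.0% of all gene names. The histone and input columns hold 1 value per genotype and mark, a mean of 2 libraries, so these differences have no replicate check.

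**Figure D1:**
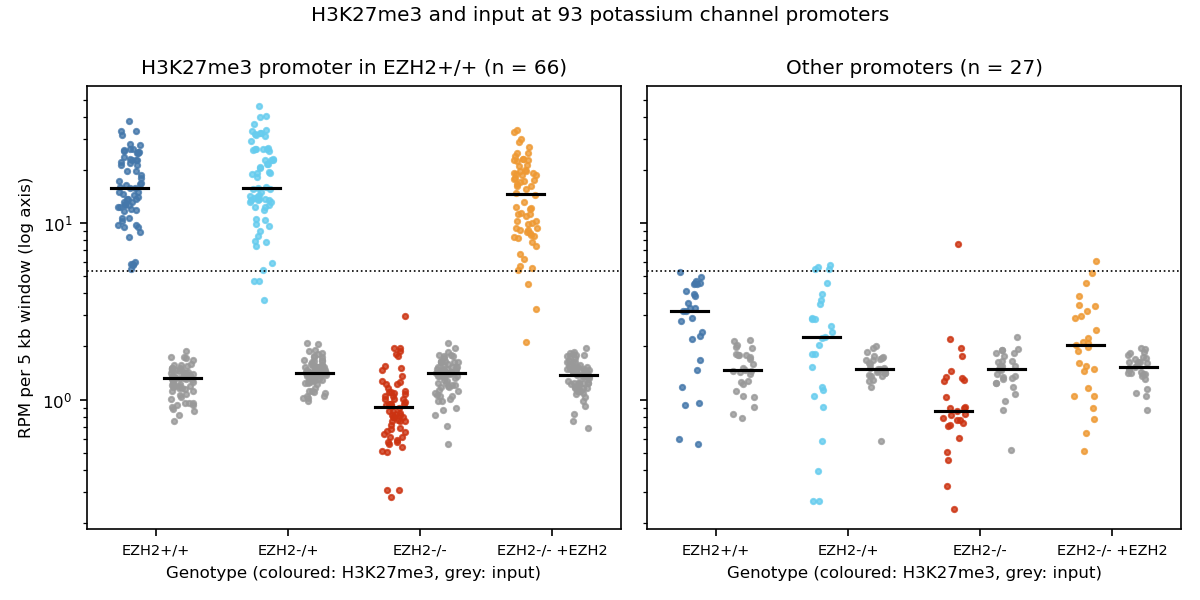
H3K27me3 (coloured points) and input (grey points) in RPM per 5 kb window on a log axis, at the 66 promoters with H3K27me3 in EZH2+/+ ESCs (left) and the other 27 (right), by genotype. Black bars are medians and the dotted line is the 5.36 RPM threshold. On the left the EZH2-/- median of 0.906 RPM sits below that of input, and the other genotypes have medians of 14.7 to 15.8 RPM.

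After restoration of EZH2 the mark at most channel promoters was somewhat below its EZH2+/+ level, as over all promoters with the mark. Of the 66, 55 were lower and 11 higher in EZH2-/- +EZH2 than in EZH2+/+ ESCs (median log2 difference -0.26), beside 83.9% lower of all H3K27me3 promoters (median -0.31). The windows were chosen for high H3K27me3 in EZH2+/+ ESCs, and centring on promoters without the mark moved the median of all 93 genes from -0.29 to -0.0376. Gains included KCNN3, a small-conductance calcium-activated channel, which went from the 10.3 RPM of EZH2+/+ ESCs to 17.2 RPM, KCNC1, a channel of fast-spiking neurons, from 16.5 to 23.9 RPM, the Kv1 channel gene KCNA4, whose RNA was below the filter used for tests, from 16.6 to 23.1 RPM, and KCNK10 (TREK-2, a mechanosensitive K2P channel) from 25.1 to 32.8 RPM. KCNH6 had the largest deficit of the tested genes with the mark, at a log2 difference of -1.47.

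The other marks changed less. H3K4me3 medians at the 66 promoters were 8.23, 12.8, 7.77 and 9.06 RPM in the same order of genotypes, and the first of these came from the shallowest libraries, of 3.43 M reads. H3K27ac medians were 1.46, 1.64, 1.92 and 1.21 RPM, beside input medians of 1.32 to 1.42 RPM. H3K27ac was higher in EZH2-/- than in EZH2+/+ ESCs at 57 of 66 promoters (median log2 difference 0.51), beside 89.1% of all 6235 H3K27me3 promoters (median 0.66). Relative to EZH2-/- +EZH2 ESCs it was higher at 64 of 66 (median 0.72), beside 93.1% (median 0.67). A rise of at least 1 on the log2 scale was seen at 12 of 66, against 23.2% of all H3K27me3 promoters, and at 13 of all 93 genes, against 9.18% of all gene names. Among those with the largest rise were KCNK12 (0.640 to 2.21 RPM), a K2P subunit also called THIK-2, and KCNK1 (1.31 to 3.57 RPM), the K2P channel TWIK-1. H3K4me1 medians were 3.49, 3.75, 4.43 and 3.49 RPM, and 59 of 66 promoters were higher in EZH2-/- than in EZH2+/+ ESCs (median log2 difference 0.38), near the 86.8% of all H3K27me3 promoters (median 0.36).

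Most potassium channel genes had low RNA levels in EZH2+/+ ESCs. Of the 92 genes with an exon length, 10 exceeded 1 RPKM (RPM per kilobase of exon) and 44 exceeded 0.1 RPKM. No such shares are given for all genes, so a comparison with them cannot be made. Per length, the most abundant was KCNK5, an acid-sensitive K2P channel also called TASK-2, at 5.79 ± 0.545 RPKM (SD, n = 3, as for all values below). It was followed by KCNG1 (3.45 ± 0.346 RPKM) and KCNS3 (3.11 ± 0.538 RPKM), silent subunits that modify Kv2 channels, and by KCNMB4 (3.09 ± 0.689 RPKM), an auxiliary subunit of BK channels. KCNK1 (2.29 ± 0.606 RPKM) and KCNN1 (2.24 ± 0.436 RPKM), a small-conductance calcium-activated channel, were within their spread of each other, above KCNH2 (1.83 ± 0.159 RPKM), the cardiac repolarising channel hERG. KCNG1, KCNS3, KCNK1, KCNN1 and KCNH2 had an H3K27me3 promoter together with this RNA, and KCNK5 and KCNMB4 had H3K4me3 alone. This holds for the chosen window. The threshold was passed by 4 of 6 windows of KCNG1, 5 of 5 of KCNS3, 1 of 6 of KCNK1, 2 of 4 of KCNN1 and 3 of 6 of KCNH2. Which start site gave the RNA was not tested. KCNK5 and KCNS3 were called in none of the comparisons. Summed over the 93 genes, the EZH2+/+ libraries held 211 to 260 RPM and the EZH2-/+ libraries 224 to 249 RPM. The sums were 252 to 297 RPM in EZH2-/- and 198 to 224 RPM in EZH2-/- +EZH2 ESCs.

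**Figure D2:**
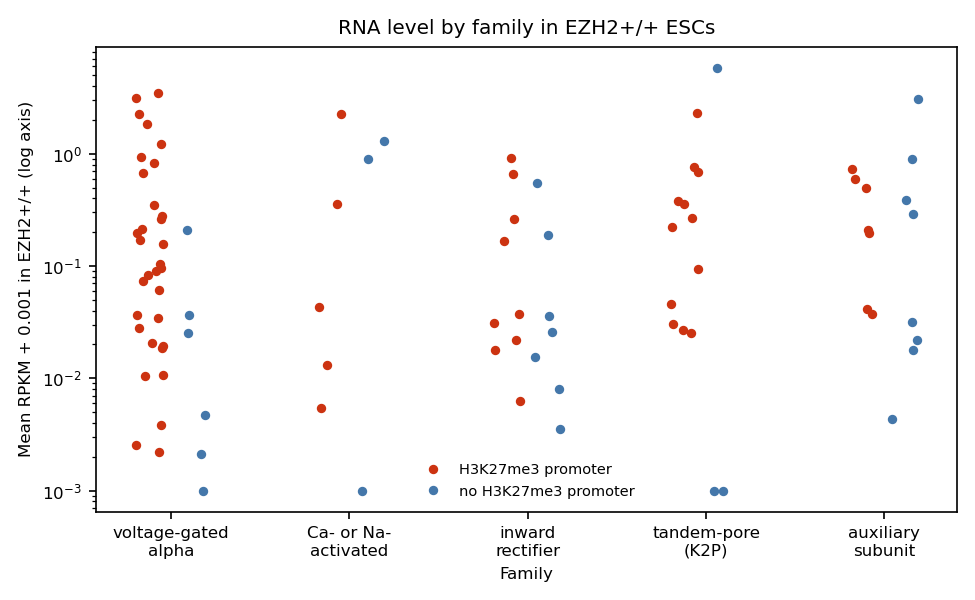
Mean RNA level in EZH2+/+ ESCs (n = 3 libraries) of the 92 genes with an exon length, in RPKM with 0.001 added on a log axis, by family and by H3K27me3 promoter in EZH2+/+ ESCs. Genes with and without the mark overlap in every family, and the highest point is KCNK5 at 5.79 RPKM.

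Tests of RNA used limma on log2(RPM + 0.1) in all 12 libraries, with Benjamini-Hochberg adjustment over the 20608 genes that averaged 0.1 RPM or more. A gene was called at an adjusted p under 0.05. Of the 93 channel genes, 70 passed this filter. The other 23 included KCNK16, KCNK18 and KCNU1, without a read in any library, and cardiac and renal channels such as KCNE1, KCNJ2 and KCNJ1. Log2 differences (± SE of the fit) are on the log2(RPM + 0.1) scale, which understates the change of low genes. Reads were counted without regard to strand, and 35 of the 70 overlap another listed gene, so their reads cannot be told apart from those of the partner. The study calls the replicates biological without saying whether they were separate cultures, so p-values measure the spread between these libraries only.

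The comparison of EZH2-/- with EZH2-/- +EZH2 ESCs is between cells with the same disrupted alleles, without and with expression of the EZH2 transgene. With the transgene, EZH2 RNA was 256 to 385 RPM, above the 59.5 to 68.6 RPM of EZH2+/+ ESCs. The study induced the transgene with doxycycline. Effects of the drug, or of this higher level, cannot be told apart from the return of EZH2. Of the 70 genes, 6 were higher in EZH2-/- ESCs (8.57%, against 2.63% of all genes tested) and 0 were lower (0.524% of all genes) by limma. Unadjusted p-values under 0.05 were found for 20 higher and 3 lower genes, beside 10.8% and 6.0% of all genes. The 6 were the voltage-gated subunits KCNF1, KCNS1 and KCNV1, the inward rectifier KCNJ16, the K2P gene KCNK12 and the auxiliary subunit KCNE4. Their values against EZH2+/+ ESCs, a comparison that shares the EZH2-/- libraries, are given beside each. The median log2 difference was 0.21 over the 70 genes and 0.017 over all genes. Among the 55 tested genes with an H3K27me3 promoter, 4 were higher (7.27%), with a median of 0.25. This was near the 7.25% and the median of 0.25 of the 4665 tested genes of the genome with such a promoter.

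KCNF1, KCNS1 and KCNV1 encode electrically silent subunits, which do not form channels alone but assemble with Kv2 subunits. KCNF1 had 3.15, 5.97 and 3.92 RPM in EZH2-/- ESCs, against 1.08, 0.965 and 0.799 RPM in EZH2-/- +EZH2 and 0.444, 0.482 and 0.524 RPM in EZH2+/+ ESCs. Every EZH2-/- library lay above every library of the other 2 groups. The log2 difference from EZH2-/- +EZH2 was 2.04 ± 0.38 (adjusted p = 0.0146), and from EZH2+/+ ESCs 2.88 ± 0.38 (adjusted p = 0.000239). KCNF1 lies at chr2:10911937-10914225 (GRCh38), its promoter H3K27me3 went from 13.6 to 1.00 RPM between EZH2+/+ and EZH2-/- ESCs, and its H3K27ac from 1.80 to 3.64 RPM. KCNS1 had 1.00, 2.12 and 1.54 RPM in the EZH2-/- libraries, again above the 0.669, 0.590 and 0.160 RPM of EZH2-/- +EZH2 and the 0.622, 0.533 and 0.459 RPM of EZH2+/+ ESCs. Its log2 differences were 1.62 ± 0.40 (adjusted p = 0.0475) and 1.33 ± 0.40 (adjusted p = 0.0243). KCNV1 was close to 0 outside EZH2-/- ESCs, with 105 reads pooled over the EZH2-/- libraries against 8 in EZH2-/- +EZH2 and 8 in EZH2+/+ ESCs. Scaled to library size, this is 9.24 times (95% counting interval 4.52 to 22) the level of the first and 11.9 times (5.82 to 28.3) that of the second, with adjusted p = 0.0158 and 0.00136. Such intervals cover counting error only.

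KCNK12 had 17.0, 24.3 and 17.7 RPM in EZH2-/- ESCs, above the 9.85, 6.19 and 5.32 RPM of EZH2-/- +EZH2 and the 7.22, 3.91 and 4.00 RPM of EZH2+/+ ESCs. The log2 differences were 1.49 ± 0.35 (adjusted p = 0.0378) and 1.98 ± 0.35 (adjusted p = 0.00125), but KCNK12 overlaps a gene on the opposite strand. KCNE4 encodes a single-pass subunit that inhibits several voltage-gated channels. Its reads numbered 154 in EZH2-/-, 7 in EZH2-/- +EZH2 and 8 in EZH2+/+ ESCs, a ratio of 15.5 (95% counting interval 7.34 to 39.2) and of 17.4 (8.63 to 41.1), with adjusted p = 0.0183 and 0.00383. EZH2-/- library 2, at 1.88 RPM, was well above the 0.581 and 0.623 RPM of the other two. KCNJ16 encodes Kir5.1, which pairs with Kir4.1 in kidney and glia, and had 75 reads in EZH2-/- ESCs against 3 and 2, a ratio of 17.6 (5.79 to 87.2) and of 34.0 (9.08 to 286), with adjusted p = 0.0110 and 0.000790. KCNE4 and KCNJ16 had no H3K27me3 promoter, with 2.79 and 0.957 RPM in EZH2+/+ ESCs, and H3K27me3 at the KCNJ16 window was 2.21 RPM in EZH2-/- ESCs, above its input of 1.32 RPM.

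These 6 calls depended on the libraries used, as did those over all genes. Leaving out EZH2-/- library 2, or EZH2-/- library 3, left 0 channel genes called by limma (16 and 18 at an unadjusted p under 0.05). Over all genes these fits called 106 and 171 higher and 12 and 37 lower, in place of 542 and 108. Leaving out EZH2-/- +EZH2 library 2 left 1 channel gene, and leaving out its library 3 left 2. Without EZH2-/+ library 3, the library that stood apart, 9 were called. Over all genes these last fits called 207, 255 and 873 higher and 31, 25 and 227 lower. When library number was fitted as a block, 9 were higher and 2 lower (6.19% and 3.21% of all genes). The added genes were KCNMB1 (adjusted p = 0.0244 with the block), KCNJ5 and KCNK13 among the higher, and KCNJ4 (adjusted p = 0.0145) and KCNT2 (adjusted p = 0.0318) as the lower ones.

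The genes with the largest differences that were not called were KCNJ4, KCNH5, KCNJ5, KCNMB1, KCNJ3 and KCNK3. KCNJ4, a strong inward rectifier of the brain, was at 0.194, 0.0563 and 0.356 RPM in EZH2-/- and 0.463, 0.831 and 1.28 RPM in EZH2-/- +EZH2 ESCs, a log2 difference of -1.70 ± 0.43 (adjusted p = 0.0520). KCNH5, the channel EAG2, was at 0.352, 0.413 and 0.178 RPM in EZH2-/- and 0.103, 0.0268 and 0 RPM in EZH2-/- +EZH2 ESCs, a difference of 1.55 ± 0.51 (adjusted p = 0.136). The G protein-gated rectifiers KCNJ5 and KCNJ3 and the K2P gene KCNK3 (TASK-1) had differences of 1.54 ± 0.44, 1.13 ± 0.37 and 1.10 ± 0.41, with non-overlapping libraries. Without overlap, 21 of the 70 genes were higher and 4 lower, against 13.5% and 9.7% of all genes.

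Relative to EZH2+/+ ESCs, potassium channel genes changed in both directions in EZH2-/- ESCs. Of 70 genes, 14 were higher (20%, against 12.6% of all genes) and 15 lower (21.4%, against 18.8%), and the median log2 difference was 0.01 against -0.13 over all genes. All 29 had no overlap between the libraries of the genotypes, among 17 higher and 19 lower tested genes without overlap (20.6% and 29.2% of all genes). Voltage-gated alpha subunits had 6 higher and 5 lower of 30, inward rectifiers 2 and 2 of 11, K2P genes 2 and 3 of 11, and auxiliary subunits 4 and 3 of 13, and KCNN3 and KCNT2 were lower among 5 calcium- or sodium-activated genes. Rescaling every library so that the median gene is level, which removes the shift of -0.13, gave 16 higher and 14 lower channel genes and 3381 higher and 2816 lower of all genes, in place of 2593 and 3870. The blocked counts were 16 higher and 17 lower, against 17.3% and 28.0% of all genes. Of the 29 calls, 17 remained in every fit without 1 library.

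**Figure D3:**
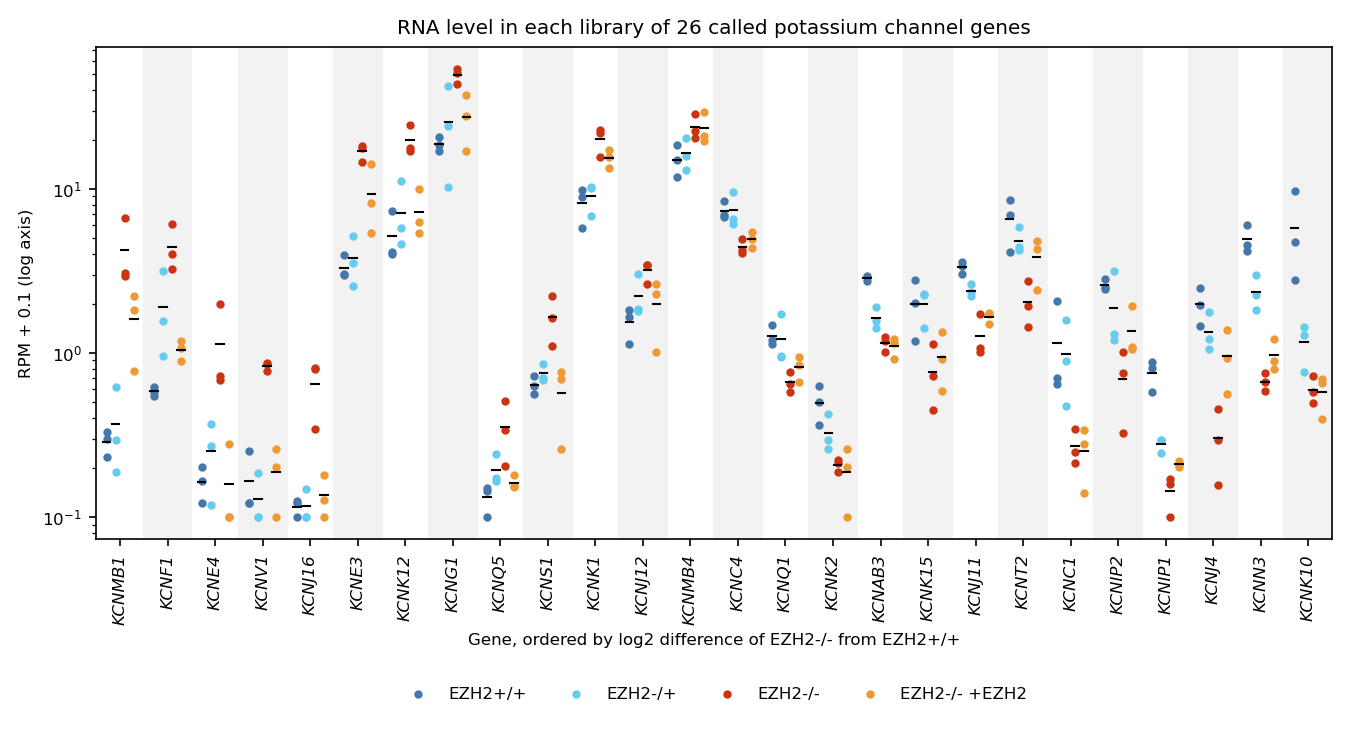
RNA level (RPM + 0.1, log axis) in every library of 26 of the 29 channel genes called between EZH2-/- and EZH2+/+ ESCs, ordered by their log2 difference. Points are libraries, coloured by genotype, and bars are means of n = 3. From KCNMB1 to KCNMB4 the EZH2-/- libraries lie above those of EZH2+/+ ESCs, and from KCNC4 to KCNK10 below.

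Among pore-forming genes that were higher, besides KCNF1, KCNS1, KCNV1, KCNK12 and KCNJ16, the one with the smallest adjusted p was KCNK1. It had 15.6, 21.9 and 22.8 RPM in EZH2-/- and 5.68, 8.82 and 9.77 RPM in EZH2+/+ ESCs, without overlap, and a log2 difference of 1.32 ± 0.24 (adjusted p = 0.00165). KCNQ5, an M-current subunit, had 36 reads against 4, a ratio of 8.15 (95% counting interval 2.92 to 31.5, adjusted p = 0.0146), and it was not called without EZH2-/- library 2, EZH2-/- library 3 or EZH2+/+ library 3. KCNG1 and KCNJ12 were also called higher. KCNS1 and KCNG1 were not called without library 2 or 3 of either genotype, and KCNJ12 without any 1 library of either genotype. KCNJ12 has a near-identical copy, KCNJ18, between which reads may be split, so its value is uncertain.

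On the fitted scale, the largest rise among the called genes was at an auxiliary subunit gene, KCNMB1. KCNE3, a partner of KCNQ1 in epithelia, had 18.3, 17.7 and 14.5 RPM in EZH2-/- and 2.89, 2.92 and 3.85 RPM in EZH2+/+ ESCs, a log2 difference of 2.36 ± 0.33 (adjusted p = 0.000329). KCNMB1, the BK channel subunit of smooth muscle, had 2.99, 6.51 and 2.85 RPM against 0.200, 0.228 and 0.131 RPM, a difference of 3.79 ± 0.50 (adjusted p = 0.000225). For both genes every EZH2-/- library lay above every EZH2+/+ library. KCNMB1 lies inside KCNIP1 on the opposite strand, and KCNIP1 moved the other way. Neither KCNE3 nor KCNMB1 had an H3K27me3 promoter, at 4.58 and 3.29 RPM in EZH2+/+ ESCs, and their H3K4me1 went from 3.68 to 7.99 RPM and from 4.52 to 11.5 RPM in EZH2-/- ESCs. Of the markers of heart and smooth muscle, 2 of 9 tested were higher in EZH2-/- ESCs, beside 12.6% of all genes, and the median log2 difference was 0.23. Summed levels were 126 to 344 RPM against 78.3 to 150 RPM, which overlap. The largest part was TAGLN, with means of 163 and 99.2 RPM, which was not called. The auxiliary subunit gene KCNMB4, also called higher, was not called in 6 of the fits without 1 library.

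The largest falls on the fitted scale were at KCNK10, KCNN3 and KCNJ4. KCNK10 had 9.61, 4.64 and 2.67 RPM in EZH2+/+ ESCs and 0.475, 0.394 and 0.623 RPM in EZH2-/- ESCs, a log2 difference of -3.09 ± 0.43 (adjusted p = 0.000320). KCNN3 had 5.93, 4.44 and 4.09 RPM against 0.563, 0.488 and 0.653 RPM, a difference of -2.87 ± 0.27 (adjusted p = 3.03e-05). KCNJ4 had 2.40, 1.37 and 1.86 RPM against 0.194, 0.0563 and 0.356 RPM, a difference of -2.81 ± 0.43 (adjusted p = 0.000566). All 3 genes were without overlap between the genotypes. KCNIP1, a calcium-binding subunit of Kv4 channels in neurons, had 85 reads in EZH2+/+ and 6 in EZH2-/- ESCs, 0.0639 times the level (95% counting interval 0.0228 to 0.145, adjusted p = 0.000167). A further Kv4 subunit, KCNIP2, had 2.35, 2.41 and 2.73 RPM against 0.651, 0.225 and 0.920 RPM (log2 difference -2.04 ± 0.46, adjusted p = 0.00521), and it overlaps its own antisense RNA.

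KCNT2, a sodium-activated channel, was the only one of the 15 lower genes without an H3K27me3 promoter. It had 6.79, 8.47 and 4.04 RPM in EZH2+/+ and 2.64, 1.84 and 1.34 RPM in EZH2-/- ESCs, a log2 difference of -1.67 ± 0.34 (adjusted p = 0.00325). KCNJ11, the pore of the KATP channel of pancreatic beta cells, went from 2.93, 3.5 and 3.28 RPM to 0.968, 0.920 and 1.63 RPM (-1.43 ± 0.24, adjusted p = 0.00107). KCNAB3, a cytoplasmic beta subunit of Kv1 channels, went from 2.86, 2.64 and 2.80 RPM to 0.915, 1.09 and 1.16 RPM (-1.32 ± 0.23, adjusted p = 0.00114). In each the libraries of the 2 genotypes were separate. KCNC4, which encodes a Kv3 channel, had a smaller difference of -0.73 ± 0.21 (adjusted p = 0.0175), and it was not called without EZH2+/+ library 1 or EZH2-/- library 2. Other lower genes were KCNC1, KCNQ1, KCNK2 and KCNK15, and the call for KCNQ1, which overlaps its antisense RNA KCNQ1OT1, was lost under the rescaling (adjusted p = 0.0618). Each of these 4 was also not called without EZH2-/- library 2, KCNC1, KCNK15 and KCNK2 without EZH2+/+ library 1, KCNK15 without EZH2+/+ library 3, KCNK2 without EZH2+/+ library 2, and KCNQ1 without any EZH2+/+ library. KCNC1, KCNQ1 and KCNK2 were further lost without EZH2-/- library 3, and KCNK15 and KCNK2 without EZH2-/- library 1.

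Loss of H3K27me3 was common to those higher and lower genes that had an H3K27me3 promoter. In EZH2+/+ ESCs 9 of the 14 higher genes and 14 of the 15 lower ones had an H3K27me3 promoter, as did 55 of all 70 tested, against 22.6% of all genes tested. Among those 55, 9 were higher and 14 lower in EZH2-/- ESCs, or 16.4% and 25.5%, and over the 4665 tested genes of the genome with an H3K27me3 promoter the shares were 19.1% and 18.6%. H3K27ac went up at both, with median log2 differences between EZH2-/- and EZH2+/+ ESCs of 0.74 over the higher, 0.57 over the lower and 0.48 over the 41 genes not called. Across the 70 genes the H3K27ac and RNA differences had a Pearson's r of 0.0918 and a Spearman's rho of 0.153. The 6 promoters with the highest H3K27me3 in EZH2+/+ ESCs, all reduced to between 0.844 and 1.55 RPM in EZH2-/- ESCs, gave no call. KCNH3 RNA averaged 0.366 ± 0.186 RPM in EZH2+/+ ESCs against 0.343 ± 0.0767 RPM in EZH2-/- ESCs, a log2 difference of 0.01 ± 0.40. KCNMA1 averaged 1.67 ± 1.25 and 1.19 ± 0.139 RPM, a difference of -0.20 ± 0.45. KCNK9, KCNK17 and KCNA2 had log2 differences of 0.55 ± 0.50, 0.30 ± 0.48 and 0.63 ± 0.61, and KCNK4 was below the filter.

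EZH2-/- +EZH2 ESCs were compared with EZH2+/+ ESCs to see which channel genes returned to their level. Of the 70 genes, 3 were higher (4.29%, against 3.4% of all genes) and 8 lower (11.4%, against 6.9%), and the median log2 difference was -0.31, against -0.15 over all genes. Libraries did not overlap at 6 higher and 23 lower genes (9.77% and 22.4% of all genes). In the blocked fit, 4 were higher and 16 lower (6.26% and 16.1% of all genes). With rescaled RPM the counts were again 3 and 8, while those of all genes went from 701 higher and 1422 lower to 1031 and 872. Without rescaling, 1 of the 55 tested genes with an H3K27me3 promoter was higher and 8 were lower (1.82% and 14.5%, median -0.51). Over the 4665 tested genes of the genome with such a promoter the shares were 3.56% and 13.2%, with a median of -0.27.

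Both comparisons use the same EZH2+/+ libraries, so the values of the genes called between EZH2-/- and EZH2+/+ ESCs are given side by side, as a description. The 14 higher genes had a median log2 difference of 1.69 in EZH2-/- and of 0.40 in EZH2-/- +EZH2 ESCs, beside 1.32 and 0.58 over all 2593 higher genes. The 15 lower genes had medians of -1.43 and -1.10, beside -1.03 and -0.63 over all 3870 lower genes. The general shift of -0.15 in EZH2-/- +EZH2 ESCs is part of these values, and a difference between the higher and the lower channel genes was not tested.

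**Figure D4:**
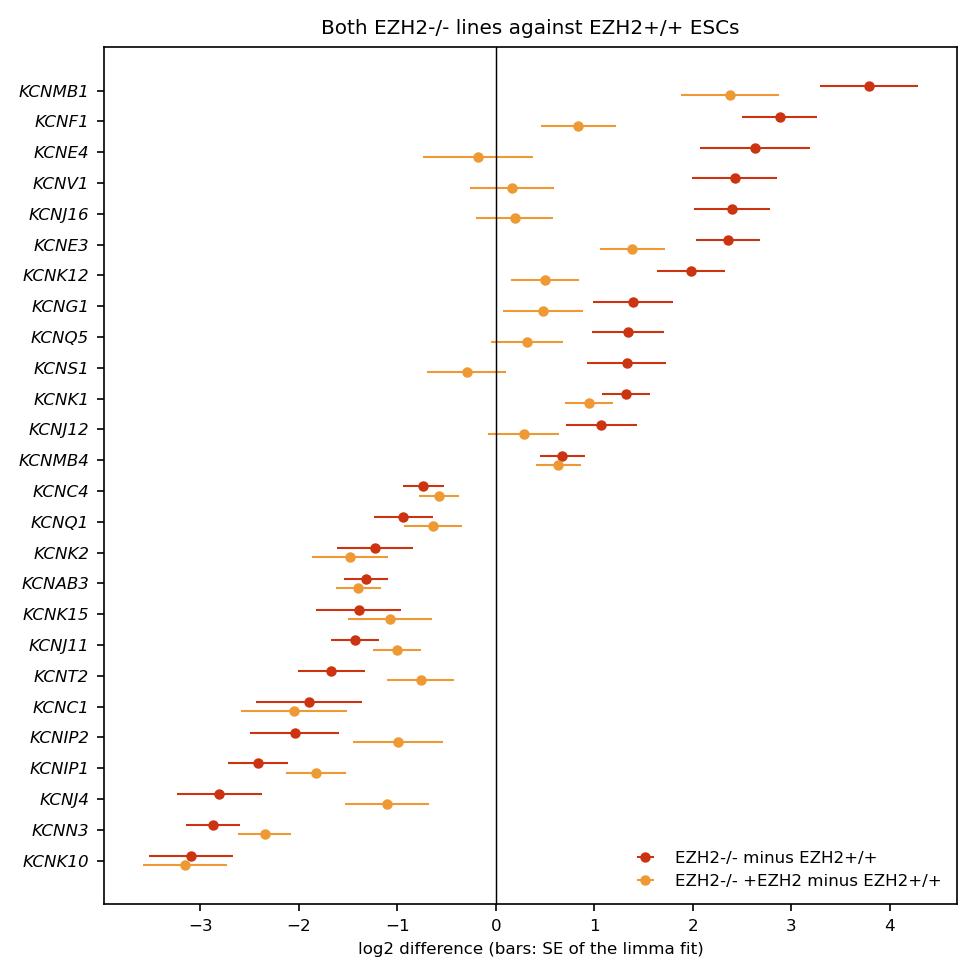
Log2 difference from EZH2+/+ ESCs, on the log2(RPM + 0.1) scale, of EZH2-/- (red) and EZH2-/- +EZH2 ESCs (orange) for 26 of the 29 genes called in the first. Bars are SE of the limma fit. Orange points are nearer to 0 than red points for most of the upper genes, with a median of 0.40 over all 14, and most of the lower ones stay left of 0, with a median of -1.10 over all 15.

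The 8 lower genes included KCNAB3, KCNC1, KCNIP1, KCNJ11, KCNK10, KCNK2 and KCNN3. KCNK10 had 0.591, 0.295 and 0.560 RPM in EZH2-/- +EZH2 ESCs, a log2 difference from EZH2+/+ of -3.16 ± 0.43 (adjusted p = 0.00108), next to the -3.09 of EZH2-/- ESCs. KCNN3 had 0.797, 0.697 and 1.12 RPM (-2.35 ± 0.27, adjusted p = 0.000429). For both the EZH2-/- +EZH2 libraries lay below every EZH2+/+ library. KCNAB3 was lower by 1.40 ± 0.23 on the log2 scale (adjusted p = 0.00294) and KCNIP1 by 1.83 ± 0.30 (adjusted p = 0.00323). KCNE3 stayed higher, at 14.1, 8.12 and 5.32 RPM (1.38 ± 0.33, adjusted p = 0.0196), as did KCNMB1, at 2.13, 1.72 and 0.679 RPM (2.37 ± 0.50, adjusted p = 0.0104), and KCNK1, at 13.3, 15.7 and 17.1 RPM (0.94 ± 0.24, adjusted p = 0.0269). KCNE3 was not called without library 1 or 2 of either genotype, KCNK1 without EZH2+/+ library 1 or 2 or EZH2-/- +EZH2 library 2 or 3, and KCNMB1 without EZH2-/- +EZH2 library 2. Among the lower genes, KCNC1, KCNJ11 and KCNK2 were each lost in 4 or 5 of these fits, EZH2+/+ libraries 1 and 2 and EZH2-/- +EZH2 library 1 being common to all 3, and KCNJ11 also without EZH2+/+ library 3.

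H3K27me3 at these genes was set beside their RNA. It was higher in EZH2-/- +EZH2 than in EZH2+/+ ESCs at 6 of the 15 lower genes, 3 of the 14 higher ones and 4 of the 41 not called, with median log2 differences of -0.15, -0.60 and -0.26. H3K27me3 was likewise higher at 1003 of all 6235 H3K27me3 promoters and at 9846 of all 35683 gene names. These groups differ in the mark itself, since 14 of the 15 lower genes and 9 of the 14 higher ones had an H3K27me3 promoter. The median was -0.26 over the 66 channel promoters with the mark and -0.50 over the 27 without it. Across the 55 tested genes with an H3K27me3 promoter, the H3K27me3 and RNA differences between these genotypes had a Pearson's r of -0.46 and a Spearman's rho of -0.384. Over all 4656 genes of this kind with both values they were -0.43 and -0.45. The values are a description across genes that share the same libraries. KCNN3, KCNC1 and KCNK10, with 0.73, 0.53 and 0.39 more H3K27me3 on the log2 scale, had lower RNA, and KCNK1, with a difference of -0.83, had higher RNA. KCNQ5 and KCNIP4, a Kv4 subunit, with gains of 0.15 and 0.18, were not called, with RNA differences of 0.31 and 0.25. KCNAB3 and KCNIP1 had less of both, at -0.43 and -0.61 in H3K27me3.

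**Figure D5:**
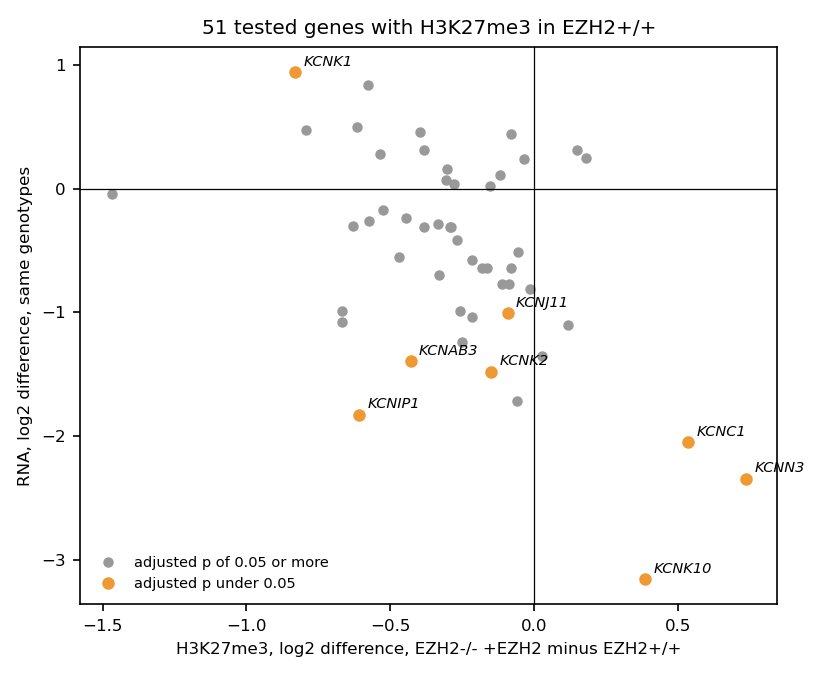
Log2 difference in promoter H3K27me3 (x axis) and in RNA (y axis) between EZH2-/- +EZH2 and EZH2+/+ ESCs for 51 of the 55 tested genes with an H3K27me3 promoter. Orange points passed the RNA test. KCNN3, KCNC1 and KCNK10 lie at the lower right and KCNK1 at the upper left, and Pearson's r over all 55 genes is -0.46.

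Between EZH2-/+ and EZH2+/+ ESCs few channel genes were called. Of the 70 genes, 0 were higher and 2 lower by limma, against 0.18% and 0.966% of all genes, with 3 higher and 7 lower at an unadjusted p under 0.05 (2.47% and 8.11% of all genes), and again 0 and 2 by voom. Libraries did not overlap at 4 higher and 10 lower genes (3.17% and 11.9% of all genes). KCNK10 had 1.35, 0.670 and 1.19 RPM, below every EZH2+/+ library, a log2 difference of -2.16 ± 0.43 (adjusted p = 0.0345). KCNIP1 had 0.147, 0.194 and 0.196 RPM against 0.777, 0.710 and 0.481 RPM, a difference of -1.42 ± 0.30 (adjusted p = 0.0435). Both calls were lost when EZH2+/+ library 1 or 2, EZH2-/+ library 1 or 2, or any EZH2-/- library was left out, and the KCNIP1 call also without any EZH2-/- +EZH2 library and under the rescaling (adjusted p = 0.0670). In the blocked fit, KCNF1 was also called higher (adjusted p = 0.0295) and KCNN3 lower (adjusted p = 0.0364), giving 1 and 3, against 0.718% and 2.16% of all genes. H3K27me3 went from 25.1 to 36.6 RPM at KCNK10 between EZH2+/+ and EZH2-/+ ESCs, and was 13.1 RPM in both at KCNIP1.

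Genes that work with potassium channels but carry other names were examined from a fixed list of 12, of which 11 were tested. In EZH2-/- relative to EZH2+/+ ESCs, 3 were higher and 4 lower, beside 12.6% and 18.8% of all genes. ABCC8, the sulfonylurea receptor that forms the beta-cell KATP channel with KCNJ11, was lower by 2.40 ± 0.38 on the log2 scale, and its paralog ABCC9 higher by 1.63 ± 0.36. DPP6, a Kv4 partner, and KCNE1L, a KCNE subunit encoded on the X chromosome, were also higher, by 1.32 ± 0.40 and 1.16 ± 0.22, and DPP10, LRRC26 and AMIGO1, partners of Kv4, BK and Kv2 channels, were lower. In EZH2-/- +EZH2 relative to EZH2+/+ ESCs 3 of the 11 were lower, beside 6.9% of all genes. Of 22 genes for sodium, calcium and HCN channels, 21 were tested. In EZH2-/- ESCs 1 was higher and 5 lower than in EZH2+/+ ESCs, beside the same 12.6% and 18.8% of all genes. HCN2, a pacemaker channel, was higher by 2.19 ± 0.33 and CACNA1G, a T-type calcium channel, lower by 2.90 ± 0.40, and SCN2A, SCN11A and CACNA1A were also lower. Relative to EZH2-/- +EZH2 ESCs, HCN2 and CACNA1E were the genes of this list with higher RNA in EZH2-/- ESCs, by 1.84 ± 0.33 and 2.86 ± 0.41 (adjusted p = 0.0112 and 0.00370). Of all genes, 2.63% were higher in that comparison. CACNA1E was not called between EZH2-/- and EZH2+/+ ESCs (log2 difference 0.60 ± 0.41). In EZH2-/- +EZH2 ESCs CACNA1E was lower than in EZH2+/+ ESCs, by 2.26 ± 0.41 (adjusted p = 0.00542 by limma). It was among 4 of the 21 genes that were lower there, beside 6.9% of all genes.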

How the data were processed

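SSEA4-sorted H9 ESCs of 4 genotypes were profiled by RNA-seq (3 libraries each) and by native ChIP-seq for 4 histone marks with input, and EZH2 was profiled in EZH2+/+ ESCs. The authors deposited log2 RPM in both tables. Per the submitters' processing notes and the methods, reads were trimmed with Trim Galore 0.4.0 and aligned to GRCh38, RNA with TopHat2 2.0.12 and ChIP with Bowtie2 2.2.5, and counted in SeqMonk per gene without strand, or per 5 kb window centred on a start site. Low ChIP values lie on the steps of a mean of 2 libraries (1 for EZH2), and depth was 3.43 to 23.8 M reads, and 93.2 M for EZH2. The labels name 2 replicates per histone sample, whereas the study describes its ChIP-seq data as means of 3. Values below 1 read, which the authors used for genes without a read, were set to 0. Whole reads were recovered for 100% of RNA values below 1000 reads, within 0.02 of a whole number.

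The members and gene lists were chosen with earlier results of these data known. Two-sided tests on log2(RPM + 0.1) used limma 3.58.1 under R 4.3.3, with a mean-variance trend and no block, and other steps used Python 3.11.15, pandas 2.3.3 and numpy 2.4.6. Library numbers recur in every genotype, and neither labels nor methods say what a shared number stands for. Deviations of same-numbered libraries from their genotype means correlated in every pair of genotypes (0.107 to 0.56), against -0.489 to 0.245 for libraries of other numbers. The ranges overlap, and counts from a fit with a block for library number are given where they differ. RPKM used exon lengths from GENCODE 44. The named genes were those called in any comparison (the 20 with the smallest p with values, the others counted), the 8 highest in RPKM, the promoters highest in H3K27me3 or H3K27ac rise, and the 6 largest differences not called. KCNA4, KCNC1, KCNH6, KCNIP4 and the genes of the promoter sequences were chosen after their values were seen. Values of some single genes are not reported here. For 1 member listed in 2 rows, the row with more RNA was kept. Alternatives were the pseudocount, the filter, the scaling, the block, the libraries used, voom on recovered reads, the promoter chosen and the H3K27me3 threshold. The limma script was tested on simulated data.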

Additional observations from a re-analysis of the deposited data

How the results depend on the processing

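Of 48 calls of single genes in the 4 comparisons, 0 changed direction under any alternative. Settings other than leaving out 1 library, among them the fit without library 3 of every genotype, kept 338 values on their side of the threshold and lost 29. Leaving out 1 library kept 459 and lost 115. Calls of genes that fell below the filter of a setting were counted neither as kept nor as lost. With a mean of at least 1 RPM, only 30 were kept and 1 was lost for this reason. The count of channel genes called ranged over the fits without 1 library from 0 to 9 between EZH2-/- and EZH2-/- +EZH2 (6 in the report), from 17 to 34 between EZH2-/- and EZH2+/+ (29), from 0 to 2 between EZH2-/+ and EZH2+/+ (2) and from 6 to 14 between EZH2-/- +EZH2 and EZH2+/+ ESCs (11). The 17 was reached without EZH2-/- library 2, the 6 without EZH2+/+ library 1 or 2 or EZH2-/- +EZH2 library 2, and 7 without EZH2-/- +EZH2 library 1. Without EZH2-/+ library 3 the counts were 9, 34, 2 and 14. Without EZH2+/+ library 1 or 2, EZH2-/+ library 2 or any EZH2-/- library, 0 channel genes were called between EZH2-/+ and EZH2+/+ ESCs. Counts over all genes also moved in the fits without 1 library. In the first comparison 106 to 873 were higher and 12 to 227 lower, and in the second 1757 to 3167 and 2350 to 4544. In the third they were 7 to 151 and 57 to 451, and in the fourth 328 to 977 and 545 to 2016.

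Between EZH2-/- and EZH2-/- +EZH2 ESCs, 1 gene was called with a mean of at least 1 RPM, where fewer genes enter, 1 (KCNF1) with voom on recovered reads, and 0 without library 3 of every genotype, an alternative chosen after seeing the data (20 at an unadjusted p under 0.05 by limma). Between EZH2-/+ and EZH2+/+ ESCs, 1 was called without a filter, 1 with a mean of at least 1 RPM, 1 with rescaled RPM and 0 with only the 6 libraries compared (11 at an unadjusted p under 0.05). In the fit with a block for library number, a pairing that neither labels nor methods state, the counts were 11, 33, 4 and 20 in the order above. All 48 calls were kept. The cause of these differences was not tested.

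The median H3K27me3 difference of EZH2-/- from EZH2+/+ over 93 promoters was -3.68. It was -2.85 with a pseudocount of 1, -2.62 at the first listed promoter and -3.01 when centred on promoters without the mark. Centring changed the EZH2-/- +EZH2 median from -0.29 to -0.0376 and the EZH2-/+ median from 0.02 to 0.21, and the latter was -0.0567 at the first listed promoter. The H3K4me3 median of EZH2-/- turned from -0.14 to 0.0787 when centred. For H3K27ac it was 0.49, with 0.32 at a pseudocount of 1 and 0.25 when centred, and for H3K4me1 0.34, with 0.21 at the first listed promoter. The 66 H3K27me3 promoters became 55 at a threshold of 1 on the log2 scale and 46 at the first listed promoter. Most channel genes have few reads, so differences at genes below 1 RPM were detectable only where large.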

Other observations

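Many potassium channel genes have several annotated start sites, and H3K27me3 was not shared by all of them. The 93 genes had 399 promoter windows, of which 185 passed the H3K27me3 threshold in EZH2+/+ ESCs. Among the 37 genes with at least 5 windows, all windows passed in 4, some in 21 and none in 12. KCNMA1 had 20 windows, 12 of them above the threshold, with H3K27me3 from 0.581 to 31.4 RPM, whereas all 10 windows of KCNK4 passed. Windows of one gene often overlap, so they are not independent. No such counts are given for other genes, so the pattern cannot be called particular to channel genes.

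In EZH2-/- ESCs the highest H3K27me3 of any channel promoter was at KCNJ18, at 7.56 RPM. The EZH2+/+, EZH2-/+ and EZH2-/- +EZH2 values were 3.87, 5.47 and 3.44 RPM. KCNJ18 is a near-identical copy of KCNJ12, where the values were 22.6, 21.5, 1.11 and 15.6 RPM, and reads may be shared between the copies. It was followed by KCNA1 at 2.97 RPM and KCNJ16 at 2.21 RPM.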
